A study of Solanum lycopersicum with 6 samples.

Results

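MADS-box transcription factors of fruit ripening were followed in the fruit wall (pericarp) of tomato (Solanum lycopersicum) with raised expression of the histone demethylase gene SlJMJ6. The set holds 8 of the 36224 rows of the deposited gene table, chosen by gene identifier for their known part in ripening or fruit identity, with earlier results of these data known. They are RIN (Solyc05g012020.3), MADS1 (Solyc03g114840.3), CMB1 (Solyc04g005320.3), FUL1 (Solyc06g069430.3), FUL2 (Solyc03g114830.3), TAGL1 (Solyc07g055920.3), TAG1 (Solyc02g071730.3) and AGL11 (Solyc11g028020.2). The RefSeq gene table of assembly SLM_r2.1 gives the same name to 7 of the 8, with TAG1 listed as AG1. The deposited table describes TAGL1 and AGL11 only as TAGL1 and TAGL11 transcription factors, and each of the others as a MADS-box or AGAMOUS protein. RIN is listed there as isoform 1 of a MADS-box transcription factor under the symbol Solyc04g005320. That symbol is the identifier of CMB1 and is also given to the CMB1 row, so RIN was taken by its own identifier. FUL1 and FUL2 likewise have the same symbol, SCM1.

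The comparison was between JMJ6-OE (3 libraries) and wild type, WT (3 libraries). JMJ6-OE plants are transgenic and overexpress SlJMJ6, which by the title of the study encodes an enzyme that takes methyl groups off histone H3 (H3K27). Both genotypes share the Ailsa Craig background, were raised in a greenhouse, and gave pericarp at 37 days after anthesis. The labels name neither the promoter of the transgene nor the number of transgenic lines behind the libraries. They do not tell if the 3 replicates were separate plants, so each p-value reflects only how far these libraries spread.

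MADS-box proteins bind DNA as dimers and assemble into larger complexes, in which SEPALLATA-type proteins act as the bridging partners. In tomato the SEPALLATA-type protein RIN is a main activator of ripening and binds near genes of ethylene synthesis, wall softening, aroma and pigment. FUL1 and FUL2 are FRUITFULL-type partners of RIN, and TAGL1 is an AGAMOUS-type protein needed both for fleshy growth of the fruit wall and for ripening. MADS1 is a SEPALLATA-type protein known as a repressor of ripening.

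The libraries held 28539410 to 36487547 counts, and 22118 to 23165 rows had at least 1 count. Levels are given as CPM, counts scaled to a library of 1000000 with TMM factors. Fold changes are JMJ6-OE over WT, fitted by edgeR's quasi-likelihood method, and p-values were adjusted by Benjamini-Hochberg over all 20143 genes tested. A gene is said to have risen or fallen where its adjusted p was under 0.05. The row taken as SlJMJ6 by its neighbourhood on chromosome 6 (Solyc06g008490.3, an uncertain match) stood at 31.5, 37.4 and 41.3 CPM in JMJ6-OE and at 26.95, 23.5 and 25.5 CPM in WT. That 1.45-fold rise had an adjusted p of 0.014, which became 0.055 without JMJ6-OE replicate 2 and 0.054 without WT replicate 2. Among 5 listed genes of the fruit epidermis and cuticle, the cuticle regulator CD2 was present at 72.8 to 88.8 CPM in JMJ6-OE and 65.3 to 96.4 CPM in WT, while SHN3 stood under 0.2 CPM in each of the 6 libraries.

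Of the 8 MADS-box regulators, 7 were tested. RIN, FUL1 and TAGL1 rose, MADS1, TAG1 and CMB1 fell, and FUL2 did not pass the test. AGL11 had 0 counts in each of the 6 libraries and could not be tested. For comparison, 34.3% of all tested genes were called in either direction, 17.5% higher and 16.8% lower in JMJ6-OE. The CPM of the 2 genotypes did not overlap for 7 of the 7 tested regulators (4 higher and 3 lower in JMJ6-OE), against 51.4% of all tested genes, 25.7% higher and 25.7% lower. CMB1 passed the filter on low counts through its WT libraries alone, so once tested it had to differ. Summed over the 8 genes, the level was 897 to 1297 CPM in JMJ6-OE and 555 to 599 CPM in WT. Most of that difference was RIN, with a mean of 462 CPM in JMJ6-OE and 44.2 CPM in WT. The median log2 fold change of the 7 tested was 0.18, against -0.012 for all tested genes.

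RIN, the ripening activator on chromosome 5, stood at 293, 512 and 582 CPM in JMJ6-OE replicates 1, 2 and 3, against 22.4, 61.1 and 49.2 CPM in WT replicates 1, 2 and 3. The lowest JMJ6-OE library was well above the highest WT library, and replicate 1 was the lowest library of each genotype. The mean was 462 ± 151 CPM in JMJ6-OE and 44.2 ± 19.8 CPM in WT (SD, n = 3 each). RIN rose 10.4-fold (log2 fold change 3.38 ± 0.45, SE; adjusted p = 0.0032), and 1.05% of all tested genes had a larger log2 fold change. In bulk pericarp a change in the number of cells that express a gene and a change in transcript per cell cannot be told apart, and this holds for every level given here. With both genotypes taken at the same fruit age, an effect of raised SlJMJ6 and a more advanced stage of ripening cannot be told apart either.

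RIN was also the regulator with the widest spread between replicates. Its coefficient of variation was 32.6% in JMJ6-OE and 44.9% in WT, against medians of 13.5% in JMJ6-OE and 11.2% in WT over all tested genes. Leaving out each library in turn gave log2 fold changes of 3.03 to 3.66, and the highest adjusted p, without JMJ6-OE replicate 2, was 0.015.

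MADS1, the SEPALLATA-type repressor of ripening on chromosome 3 (symbol EJ2 in the deposited table), stood at 52.6, 52.6 and 45.9 CPM in JMJ6-OE, against 79.8, 116 and 99.0 CPM in WT. All JMJ6-OE libraries were below all WT libraries, and the WT libraries were more spread, with a coefficient of variation of 7.73% in JMJ6-OE and 18.4% in WT. MADS1 fell 1.95-fold (log2 fold change -0.96 ± 0.14, adjusted p = 0.0027).

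CMB1, a SEPALLATA-type gene on chromosome 4 whose silencing is known to delay ripening, had 0 counts in each JMJ6-OE library and 13, 28 and 11 counts in the WT libraries. Those WT counts correspond to 0.440, 0.702 and 0.283 CPM, so the gene was near the limit of detection in WT and below it in JMJ6-OE. Against a floor of 3 counts per library, the mean level of CMB1 was at least 4.85-fold lower in JMJ6-OE than in WT. The edgeR fit gave an adjusted p of 0.0089, but CMB1 met the filter on low counts through WT alone, so that call was nearly fixed. Floors cover counting error only.

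**Figure D1:**
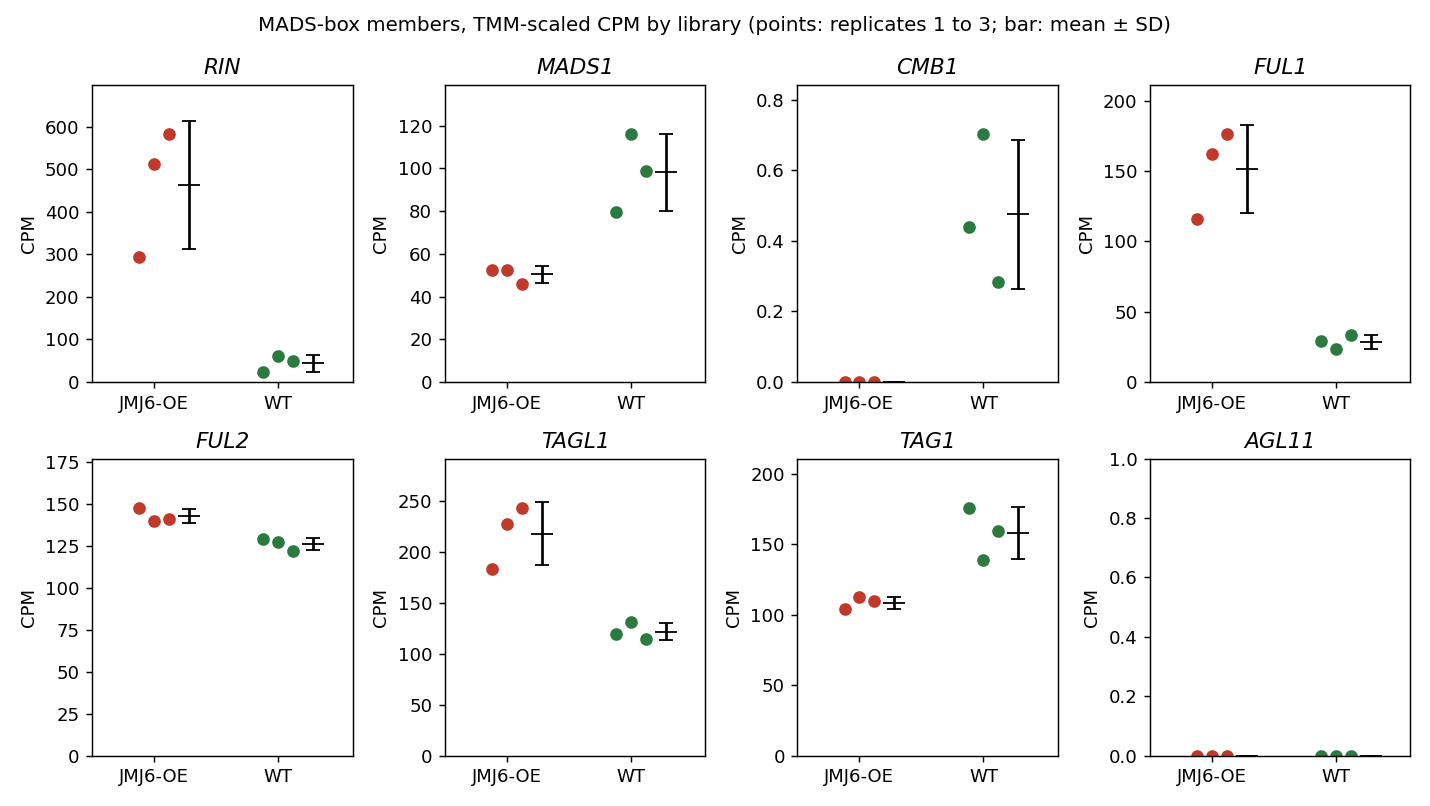
TMM-scaled CPM of the 8 MADS-box regulators, with JMJ6-OE at the left and WT at the right of each panel. Points are the 3 libraries of a genotype in replicate order and the bar is their mean ± SD. RIN reached 293 to 582 CPM in JMJ6-OE against 22.4 to 61.1 CPM in WT, FUL2 differed little, and AGL11 was at 0 throughout.

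Of the FRUITFULL-type pair, FUL1 rose and FUL2 did not pass the test. FUL1, on chromosome 6, stood at 116, 162 and 176 CPM in JMJ6-OE, against 28.8, 23.2 and 33.5 CPM in WT. The groups were far apart, with JMJ6-OE replicate 1 the lowest of its genotype, as it was for RIN. FUL1 rose 5.31-fold (log2 fold change 2.41 ± 0.20, adjusted p = 0.00037), and the log2 fold change stayed between 2.25 and 2.57 when each library was left out.

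FUL2, on chromosome 3, stood at 147, 140.1 and 141 CPM in JMJ6-OE, against 129, 127 and 122 CPM in WT. All JMJ6-OE libraries were above all WT libraries by a small margin, and FUL2 had the narrowest spread of the regulators with counts in both genotypes, with coefficients of variation of 2.83% in JMJ6-OE and 2.80% in WT. At 0.18 ± 0.075 on the log2 scale, its adjusted p was 0.10. The small margin rested on the scaling of the libraries, since the log2 fold change was -0.0064 with library totals alone (adjusted p = 0.96). In the authors' deposited table the log2 fold change of FUL2, made from mean FPKM, was -0.0063, and its FDR, from a test not named there, was 0.095. FUL1 and FUL2 are close relatives, and how the counting treated reads that match both is not given in the sources used here. This also holds for TAG1 and TAGL1 and for the SEPALLATA-type genes CMB1, J2 and MADS1.

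The AGAMOUS-type genes moved in opposite directions. TAGL1, on chromosome 7, stood at 184, 227 and 243 CPM in JMJ6-OE, against 119, 132 and 115 CPM in WT. JMJ6-OE replicate 1 was again the lowest of its genotype and still above every WT library. TAGL1 rose 1.79-fold (log2 fold change 0.84 ± 0.12, adjusted p = 0.0027).

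TAG1, the tomato AGAMOUS gene that sets stamen and carpel identity in the flower and also acts in fruit growth, lies on chromosome 2 and stood at 104, 112 and 109.6 CPM in JMJ6-OE, against 176, 139 and 159.7 CPM in WT. The 3 JMJ6-OE libraries were close together and all below the lowest WT library. TAG1 fell 1.46-fold (log2 fold change -0.54 ± 0.10, adjusted p = 0.0072). In the authors' deposited table, the log2 fold changes were 3.17 for RIN, 2.21 for FUL1, 0.64 for TAGL1, -0.73 for TAG1 and -1.15 for MADS1, each lower than the TMM-scaled value.

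AGL11, on chromosome 11, belongs to the AGAMOUS-related genes that act in ovule and seed identity. Its count of 0 in each library allows a level of up to 0.0892 to 0.111 CPM in JMJ6-OE and 0.0752 to 0.101 CPM in WT (3 counts). MBP3, the nearest tomato relative of AGL11 and likewise a gene of seed and inner fruit tissue, was present at 6.52 to 8.41 CPM in JMJ6-OE and 3.13 to 6.53 CPM in WT. The 2 ranges of MBP3 met at their edges, and MBP3 did not pass (0.76 ± 0.29 on the log2 scale, adjusted p = 0.081).

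Among 34 rows described as seed storage proteins or oleosins, 15 were at 0 in all libraries, including all 4 rows for 2S storage proteins, and 6 were tested. Of these 6, 2 were higher in JMJ6-OE, an oleosin 1-like gene (Solyc06g060840.1, 24.8 to 62.0 CPM in JMJ6-OE and 4.13 to 7.42 CPM in WT) and a gene described as a 12S storage protein (Solyc01g104110.3, 2.85 to 4.56 CPM in JMJ6-OE and 0 to 0.251 CPM in WT). The summed seed list was 34.8 to 73.7 CPM in JMJ6-OE and 10.6 to 14.9 CPM in WT. Most of the JMJ6-OE sum was the oleosin 1-like gene. The other 4 tested rows were not called, with log2 fold changes of -0.65 to 0.37. Of 17 phloem rows, 11 were tested, of which 5 were higher and 3 lower in JMJ6-OE, and their summed level was 68.6 to 89.6 CPM in JMJ6-OE and 56.6 to 69.3 CPM in WT. Of the 5 cuticle genes, 4 were tested and 1 was lower, the cutin-forming enzyme gene CD1 at -1.12 ± 0.23, with summed levels of 237 to 354 CPM in JMJ6-OE and 182 to 272 CPM in WT. Of all tested genes, 17.5% were higher and 16.8% lower. The 12S gene met the filter on low counts through JMJ6-OE, where it was high. The lower phloem rows Solyc12g096880.2 and Solyc12g096890.1 met it through WT, so for these genes a difference was nearly fixed once they were tested. The part of these tissues in the levels of the MADS-box genes was not tested.

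On the FPKM scale, which divides by gene length and was computed by the authors, the order of the regulators differed between the genotypes. In JMJ6-OE, RIN led at 254 ± 69.8 FPKM, followed by TAGL1 at 176 ± 14.6, FUL2 at 111 ± 10.05, FUL1 at 87.2 ± 13.2, MADS1 at 34.6 ± 4.52 and TAG1 at 30.4 ± 1.24 FPKM (SD, n = 3). In WT, TAGL1 at 113 ± 10.2 and FUL2 at 112 ± 3.61 FPKM led, followed by MADS1 at 77.0 ± 16.1, TAG1 at 50.3 ± 4.497, RIN at 28.2 ± 13.2, FUL1 at 18.8 ± 3.27 and CMB1 at 0.537 ± 0.250 FPKM.

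In JMJ6-OE each of these genes was above the next in 3 of 3 libraries. In WT, TAGL1 was above FUL2 in 1 of 3 libraries and RIN above FUL1 in 2 of 3, so neither pair was ordered beyond its spread, while the other neighbours kept their order in 3 of 3. Among all 175 MADS-box rows, RIN ranked 2 in JMJ6-OE and 12 in WT by mean FPKM. The place of TAG1 in this order rests on the long gene length that its FPKM implies, 3.35 kb, against 1.16 kb for TAGL1.

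The make-up of each clade differed between the genotypes. RIN held 24.3%, 34.6% and 37.8% of the summed FPKM of 6 SEPALLATA-clade genes in JMJ6-OE, against 2.48%, 6.27% and 5.05% in WT. MADS1 held 5.38%, 4.38% and 3.67% in JMJ6-OE, against 10.9%, 14.7% and 12.5% in WT. These shares did not overlap between genotypes for either gene. The rest of that clade was mostly TM29, a SEPALLATA-type gene linked to fruit set, with 48.6%, 41.1% and 38.8% in JMJ6-OE and 53.8%, 49.8% and 53.1% in WT, and TM5, a SEPALLATA-type gene of flower organ identity, with 19.7% to 21.7% in JMJ6-OE and 26.9% to 30.3% in WT.

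FUL1 held 30.5%, 36.7% and 38.1% of 5 genes of the APETALA1 and FRUITFULL clade in JMJ6-OE, against 10.2%, 7.62% and 11.5% in WT. By FPKM, FUL2 remained the largest of that clade in every library. Its share was 51.8%, 42.6% and 40.8% in JMJ6-OE and 60.9%, 56.1% and 56.2% in WT. TAGL1 held 82.9%, 84.7% and 86.0% of 4 AGAMOUS-clade genes in JMJ6-OE, against 65.6%, 72.9% and 67.2% in WT. Across all 175 MADS-box rows RIN made up 16.6 ± 3.86% of the summed FPKM in JMJ6-OE and 2.25 ± 0.96% in WT. The summed FPKM of the SEPALLATA clade was 779 ± 55.2 in JMJ6-OE and 601 ± 42.5 in WT, so RIN filled a larger part of a larger total.

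**Figure D2:**
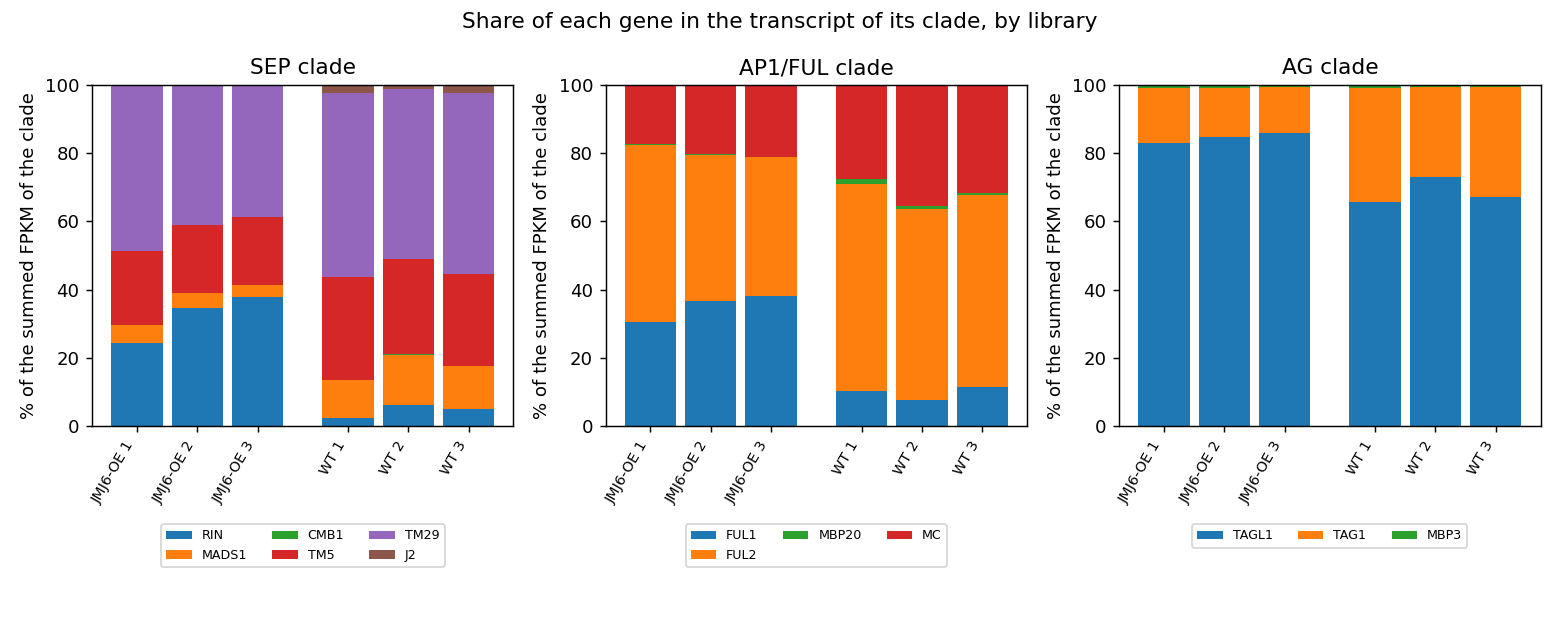
Share of each gene in the summed FPKM of its clade, in percent, for the 3 JMJ6-OE libraries (left bars) and the 3 WT libraries (right bars) of each panel. RIN filled 24.3% to 37.8% of the SEPALLATA clade in JMJ6-OE and 2.48% to 6.27% in WT, and TAGL1 filled 82.9% to 86.0% of the AGAMOUS clade in JMJ6-OE and 65.6% to 72.9% in WT.

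Ratios between related or partner genes within a library do not depend on library scaling. The FPKM ratio of RIN to MADS1, an activator and a repressor of the same clade, was 4.52, 7.89 and 10.3 in JMJ6-OE, against 0.227, 0.427 and 0.403 in WT. RIN exceeded MADS1 in every JMJ6-OE library and was below it in every WT library, a 21.1-fold difference of the ratio. The ratio of FUL1 to FUL2 was 0.588, 0.863 and 0.934 in JMJ6-OE, against 0.167, 0.136 and 0.205 in WT, a 4.67-fold difference. By FPKM, FUL1 came close to FUL2 in JMJ6-OE but stayed below it in each library. By CPM, which does not divide by gene length, FUL1 was above FUL2 in JMJ6-OE replicates 2 and 3.

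The ratio of TAGL1 to TAG1 was 5.12, 5.86 and 6.43 in JMJ6-OE, against 1.97, 2.74 and 2.08 in WT, a 2.58-fold difference. The ratio of RIN to its partner FUL1 was 2.42, 3.03 and 3.16 in JMJ6-OE, against 0.742, 2.52 and 1.41 in WT. This last ratio overlapped between the genotypes, through WT replicate 2. Exact two-sided permutation tests of the log2 ratios gave p = 0.10 for RIN to MADS1, for FUL1 to FUL2 and for TAGL1 to TAG1, the smallest p that 3 against 3 libraries allow, and p = 0.20 for RIN to FUL1. Adjusted over the 4 ratios, these exact p-values were 0.13 for the first 3 and 0.20 for the last, so none passed 0.05.

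The rest of the family gives the setting for these changes. Of 167 other rows described as MADS-box or related genes, 118 had 0 counts in all libraries and 27 were tested. In JMJ6-OE 6 of them rose and 7 fell, while 14 were not called, and their median log2 fold change was -0.16. The 48.1% of other MADS-box genes that were called compares with 34.3% of all tested genes. These counts were sensitive to single libraries: 3 rose without JMJ6-OE replicate 2, JMJ6-OE replicate 3 or WT replicate 2, and 4, 3 and 4 fell without JMJ6-OE replicate 2, WT replicate 2 and WT replicate 3.

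Among 13 listed relatives of the regulators, 9 were tested, with 1 higher, 4 lower and 4 not called, where 17.5% of all tested genes were higher and 16.8% lower. J2, a SEPALLATA-type gene with the deposited description CMB1-like, acts in inflorescence branching and fruit stalk abscission. It stood at 0.124, 0.713 and 0.26 CPM in JMJ6-OE, against 14.9, 8.37 and 16.2 CPM in WT. J2 was nearly undetected in all JMJ6-OE libraries and fell 35.0-fold (log2 fold change -5.13 ± 0.57, adjusted p = 0.0012). TAP3, a DEFICIENS-type gene of petal and stamen identity, stood at 0, 0.238 and 0.297 CPM in JMJ6-OE, against 5.51, 2.83 and 2.99 CPM in WT, and also fell (log2 fold change -4.40 ± 0.76, adjusted p = 0.0056). Like CMB1, both met the filter on low counts through their WT libraries, where they were high, so a difference was nearly fixed once they were tested.

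The other calls among the relatives lay near the threshold. TM6, also a DEFICIENS-type gene, stood at -0.51 ± 0.15 on the log2 scale (adjusted p = 0.035, called under 9 of 14 alternatives). AGL6, whose mutants set seedless fruit, was at 0.279 to 1.04 CPM in JMJ6-OE and 1.42 to 5.51 CPM in WT (log2 fold change -2.15 ± 0.69, adjusted p = 0.049, called under 6 of 14). TM29, the most abundant SEPALLATA-type gene in WT, was higher by 0.27 ± 0.088 on the log2 scale (adjusted p = 0.0499, called under 4 of 14). Not called were TM5 (0.092 ± 0.092, adjusted p = 0.48), MC, a regulator of sepal size and the fruit stalk joint (-0.14 ± 0.17, adjusted p = 0.57), and MBP20, a FRUITFULL-type gene (-1.39 ± 0.59, adjusted p = 0.11).

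Outside the listed relatives, the strongest calls by adjusted p were in less studied branches, whose genes the deposited table names after Arabidopsis proteins. The AGL80 gene Solyc01g102260.3 fell (log2 fold change -4.06 ± 0.37, adjusted p = 0.00044) and likewise met the filter through WT, and the MADS-box 23-like gene Solyc01g106177.1 fell too (-1.09 ± 0.26, adjusted p = 0.017, called under 12 of 14 alternatives). The AGL62 gene Solyc01g106700.3 (2.16 ± 0.29), the AGL66 gene Solyc07g052700.3 (0.85 ± 0.12) and 2 genes described as MADS AFFECTING FLOWERING 5, Solyc12g087830.2 (0.53 ± 0.11) and Solyc12g087810.2 (0.43 ± 0.11), rose. The call of Solyc12g087810.2 held under 7 of 14 alternatives. RIN and FUL1 had the largest positive log2 fold changes of the whole tested family.

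**Figure D3:**
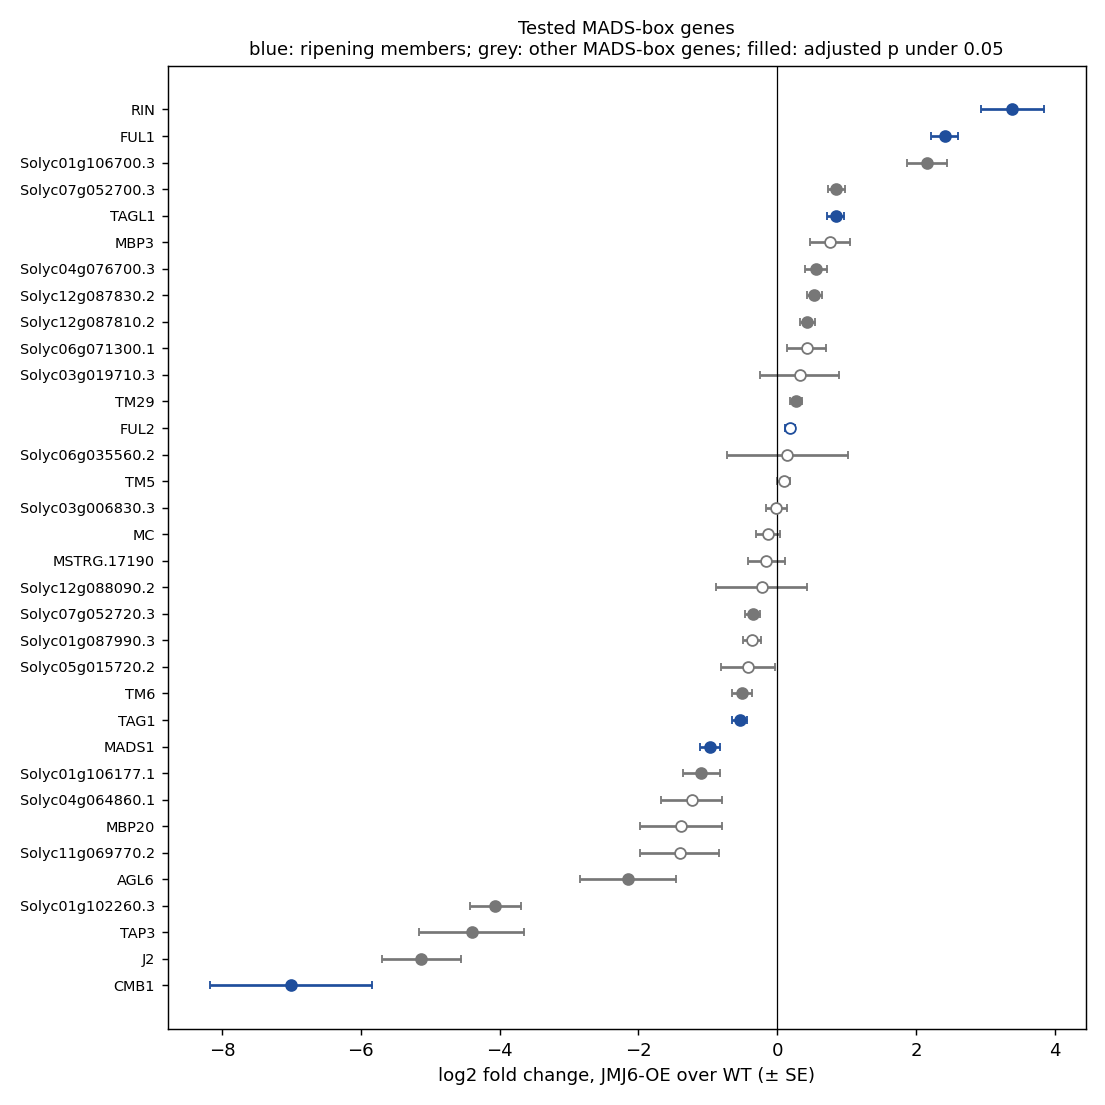
Log2 fold change (JMJ6-OE over WT, ± SE) of the 34 tested MADS-box genes, in order of size. Blue points are the 7 tested ripening regulators, grey points the 27 other genes, and filled points have an adjusted p under 0.05. RIN (3.38) and FUL1 (2.41) stand at the top and CMB1, whose fitted value depends on the treatment of its 0 counts, at the bottom.

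Of 16 genes that published work found bound by RIN, 16 of 16 were tested and rose, with log2 fold changes of 1.13 to 6.61 and a median of 3.75, against 17.5% of all tested genes called higher and a median of -0.012. The list was drawn up with earlier results of these data known, so this count is a description and not independent evidence. Their summed level was 21642 to 34854 CPM in JMJ6-OE and 2613 to 3303 CPM in WT. The polygalacturonase PG2A, which degrades pectin, stood at 4063, 5102 and 3869 CPM in JMJ6-OE, against 48.8, 48.5 and 36.4 CPM in WT, a 97.5-fold rise (log2 fold change 6.61 ± 0.23, adjusted p = 3.1e-05). Pectate lyase PL stood at 1012, 1481 and 1641 CPM in JMJ6-OE, against 46.1, 46.5 and 40.2 CPM in WT (4.96 ± 0.22). These wall-softening genes had the smallest adjusted p of the 16. PG2A also had the largest log2 fold change of the list, but other listed targets lay above PL by that measure.

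The galactosidase TBG4, also a wall enzyme, rose by 3.20 ± 0.25 on the log2 scale, phytoene synthase PSY1 by 3.67 ± 0.31, the alcohol dehydrogenase ADH2 of aroma synthesis by 1.79 ± 0.15 and the ethylene-regulated gene E8 by 3.74 ± 0.33. NOR, a NAC-type regulator, was the only target whose call was lost under any of the 14 alternatives, namely without JMJ6-OE replicate 2 (adjusted p = 0.051). It was picked out after its values were seen.

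JMJ6-OE replicate 1, lowest of its genotype for RIN, FUL1 and TAGL1, was also lowest for 14 of the 16 targets, or 87.5%. The same library was lowest for 80.9% of all genes called higher and 44.1% of all tested genes. WT replicate 1, the lowest WT library for RIN, was lowest of its genotype for 10 of 16 targets, or 62.5%, against 42.1% of all genes called higher. In WT, 6 of the 16 targets were lowest in replicate 3 instead. The part of library differences in these values was not tested.

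**Figure D4:**
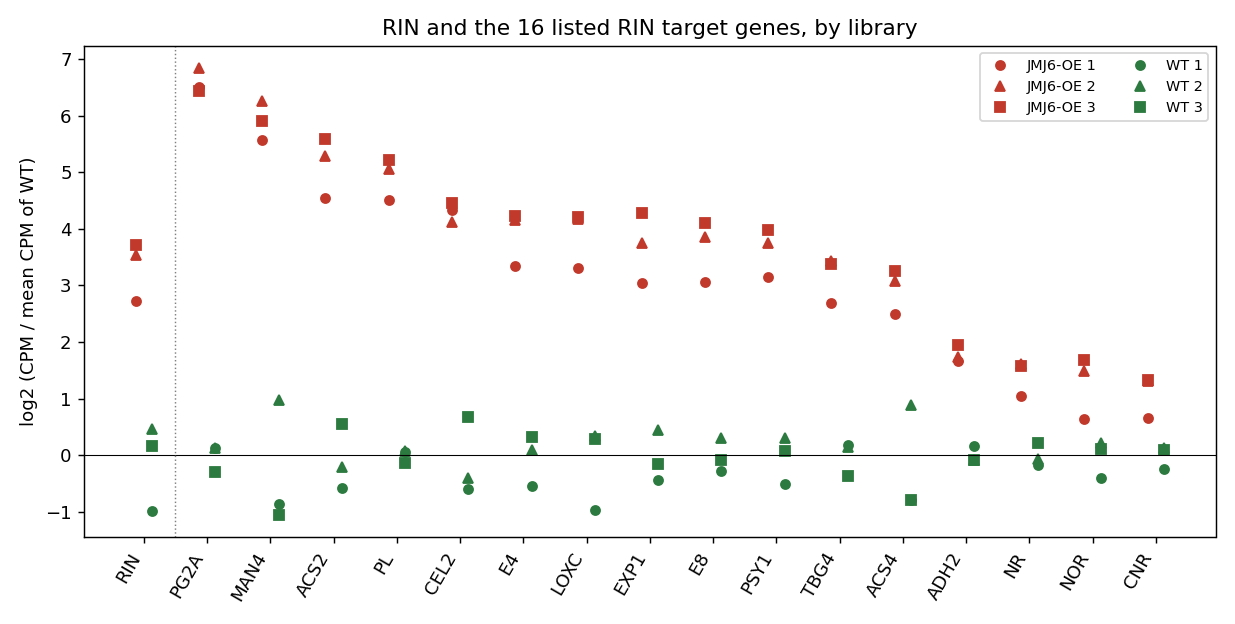
Level of RIN and of 16 listed RIN target genes in each library, as log2 of CPM over the mean CPM of WT. Red symbols are JMJ6-OE and green symbols WT, with a symbol shape for each replicate number. Every target was above all WT libraries in all JMJ6-OE libraries, and JMJ6-OE replicate 1 (red circles) was the lowest of its genotype for 14 of the 16.

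Of 10 listed ripening regulators outside the MADS-box family, 10 were called, 7 higher and 3 lower in JMJ6-OE, beside 34.3% of all tested genes called, 17.5% higher and 16.8% lower. This list, too, was drawn up with earlier results known. NOR and CNR stand in this list and in the list of RIN targets. APRR2, a pigment regulator, rose by 1.72 ± 0.16 on the log2 scale, the DNA demethylase gene DML2 by 1.43 ± 0.23, LOB1, a regulator of softening, by 1.32 ± 0.22, and CNR, an SBP-box gene, by 1.13 ± 0.20. GLK2, a regulator of chloroplast development in green fruit, fell 4.20-fold (log2 fold change -2.07 ± 0.35, adjusted p = 0.0060) to 3.999, 10.6 and 9.90 CPM in JMJ6-OE, against 31.1, 38.4 and 33.0 CPM in WT. HB1, a homeobox regulator of ethylene synthesis, fell as well (-0.85 ± 0.13 on the log2 scale, adjusted p = 0.0032), and NOR-like1 was lower by a small margin (-0.34 ± 0.11, adjusted p = 0.046, called under 8 of 14 alternatives).

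By gene order, FUL2 and MADS1 are direct neighbours on chromosome 3, both in the deposited identifiers and in the RefSeq table. FUL2 did not pass the test while MADS1 fell, so these neighbours did not share a call. The neighbour of MADS1 on its other side, Solyc03g114850.3, fell too (-0.81 ± 0.25, adjusted p = 0.039). Taking 2 rows on each side of every regulator, a window chosen after the values were seen, gave 28 flanking rows, of which 20 were tested, with 6 higher, 4 lower and 10 not called, where 34.3% of all tested genes were called. The tested neighbours of RIN were Solyc05g012010.3 (0.56 ± 0.17, adjusted p = 0.040) and Solyc05g012040.3 (0.46 ± 0.13, adjusted p = 0.031), both higher by far less than RIN itself at 3.38. FUL1 lay between Solyc06g069420.3 (0.90 ± 0.18) and Solyc06g069440.3 (0.51 ± 0.10), which rose, and none of the 4 neighbours of TAGL1 was called. TAG1 lay between Solyc02g071720.2, which was not called, and Solyc02g071740.3, which fell (-0.87 ± 0.16). Beyond the latter, Solyc02g071750.3 rose (0.74 ± 0.15).

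The genes with profiles most like the regulators were sought among the 11943 tested genes that averaged 10 CPM or more, by the root mean square difference of centred log2 CPM over the 6 libraries. Nearest to RIN was a beta-glucosidase gene (BGLU42, Solyc11g008720.2) at 0.15. Next were a gene described as geranylgeranyl pyrophosphate synthase 2 (symbol GGPS1, Solyc04g079960.1) and a cytochrome P450 gene (Solyc03g122360.3), each at 0.20. The median gene was at 1.77. Nearest to MADS1 were a pentatricopeptide repeat gene (Solyc05g047540.3) at 0.072, DGD1, an enzyme of chloroplast membrane lipid synthesis (Solyc01g007100.3), at 0.079 and the calcium pump gene ACA2 (Solyc02g064680.3) at 0.084, with a median of 0.56. Nearest to TAGL1 were the sufE-like gene Solyc12g015910.1 at 0.026, a LAZ1 homolog (Solyc04g064850.3) at 0.032 and the MADS-box gene AGL66 (Solyc07g052700.3) at 0.036, with a median of 0.44.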

How the data were processed

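Messenger RNA libraries of pericarp, 3 of JMJ6-OE and 3 of WT, were assigned to groups by their sample titles. Alignment used HISAT2, per the submitters' processing notes; the counter, strand setting, genome build and annotation were not given in the sources used here. Per its headers, the table deposited by the authors holds a raw count and an FPKM for each gene and library, the authors' mean FPKM, a log2 fold change made from those means (a mean of 0 replaced by 0.001), and a p-value and FDR of unnamed test. Of its 36224 rows, 456 carry assembler identifiers.

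Counts were tested with edgeR 4.0.16 (filterByExpr with a minimum count of 10, TMM, robust quasi-likelihood fit, genotype only), with Benjamini-Hochberg adjustment over all 20143 genes kept. Members and lists were chosen with earlier results of these data known. Named were all 8 members, tested relatives, up to 6 further called MADS-box genes, up to 6 called genes of each other list plus those opposite to its majority, and 3 genes of most similar profile (0.5 CPM added) for RIN, MADS1 and TAGL1. FPKM ratios were compared by exact permutation. Alternatives were RLE, upper-quartile and library-total scaling, DESeq2 1.42.0, limma-voom (limma 3.58.1), no filter, a minimum of 1 CPM in 3 libraries, a block for the replicate number, limma on log2(FPKM + 0.1) and leaving out each library. Tallies of calls over 14 alternatives leave out library-total scaling. The fits were tested on simulated counts, and figures drawn with matplotlib 3.10.9. Sequences and coordinates were not used here.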

Additional observations from a re-analysis of the deposited data

How the results depend on the processing

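RIN, FUL1 and TAGL1 were called higher and MADS1 and TAG1 lower in JMJ6-OE under every alternative. CMB1 was called lower wherever it was tested, but its 0 counts in JMJ6-OE nearly fixed that call. CMB1 was left out by the filter of 1 CPM and without WT replicate 2, where 2 regulators were lower. The log2 fold change of FUL2, not called in any fit, was -0.0064 with library totals alone (chosen after seeing the data) and -0.0097 with limma on FPKM. These scalings moved the median log2 fold change of all genes by -0.19. Of all tested genes, 3517 were higher and 3394 lower; limma on FPKM gave 2282 and 5056, and library totals alone 2230 and 4950. Leaving out each library gave 2027 to 4169 higher and 2046 to 3962 lower. Other MADS-box genes numbered 3 higher with limma on FPKM, and 3 to 6 higher and 3 to 6 lower when each library was left out.

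The labels do not tell if equal replicate numbers mark paired samples. Deviations of same-numbered libraries correlated at 0.064, 0.032 and -0.060, and those of the other pairs at -0.11 to 0.086. With 3 libraries per genotype these values cannot decide the question. With the replicate block, 3024 genes were higher and 2964 lower, and the regulators kept their counts of 3 higher and 3 lower. Exact sign-flip tests of the 4 ratios over replicate numbers gave p = 0.25, the smallest that 3 pairs allow. The 36 alternative values of the ratios kept their direction. Depth limited CMB1 and AGL11, which lay at or under the floor of 3 counts in JMJ6-OE.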
